A study of Camelus dromedarius with 30 samples.

Results

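The genes described here are the 150 that were most enriched in the kidney cortex over the medulla in control dromedaries, out of 22444 genes in the count table of which 8013 averaged 10 CPM or more in the control cortex (CPM are counts of a gene divided by all counts of its library and scaled to 1 common total). Members were ranked by the log2 ratio of the mean CPM of the cortex to that of the medulla, with 1 CPM added to both, over the 5 control camels. *THRSP*, the aquaporins and genes named as solute carriers (SLC) were left out, which removed 7 genes that ranked above the lowest member. All 150 members passed the filter on low counts and were among the 15376 genes tested. The values that chose them ran from 2.11 to 6.65 with a median of 2.59, and are a description of the control libraries, with no test. The last 3 members had values of 2.12, 2.11 and 2.11, and the 3 genes just outside had 2.10, 2.10 and 2.09.

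Only 35 of the 150 carried a symbol, and 115 are known here by their Ensembl identifier alone. Symbols came from the gene lists published with the study, which favour genes and proteins that differed between groups, so the share of named genes among those that passed a test is not a property of the members. For the same reason a solute carrier without a symbol could not be left out.

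The cortex of the kidney holds the glomeruli, the proximal tubules and the distal convoluted tubules, while the medulla holds the loops of Henle and the collecting ducts that concentrate urine. Proximal tubule cells take back most of the filtered glucose, amino acids, phosphate and small proteins through a dense brush border, and they break down amino acids, fatty acids and inositol. Genes whose RNA is concentrated in the cortex therefore tend to serve uptake, intermediary metabolism and secretion. Some, such as those for calbindin and the ammonia transporters, belong instead to the distal segments and the cortical collecting duct.

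Poly(A)-selected RNA was sequenced from the cortex and the medulla of 15 male camels (*Camelus dromedarius*) aged 4-5 years and fed alfalfa hay. Control camels (n = 5) drank and ate freely, dehydrated camels (n = 5) had food and no water for 20 days, and rehydrated camels (n = 5) went through the same 20 days and then drank freely for 3 days. The 30 libraries held 12634346 to 20005136 counts, and the tested genes took at least 99.9% of every library. The labels give each camel 1 cortex and 1 medulla library, so the replicates within a tissue are separate animals. For rehydrated camels the library names of the 2 tissues carry different animal numbers, so which cortex belongs with which medulla is in doubt, and the tests given for the members do not use that pairing. RNA came from frozen tissue, and in such bulk samples fewer cells of a type and less RNA per cell cannot be told apart. The 4 proximal tubule genes with a symbol (*GATM*, *MIOX*, *SLC13A3* and *SLC22A8*) had higher means in control cortex than in control medulla, and of the podocyte genes only *SYNPO* carried a symbol, with a mean of 1.76 CPM in control cortex and 10.9 CPM in control medulla.

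In the cortex, the members took a smaller part of the RNA in dehydrated camels than in control camels, and a part between them in rehydrated camels. They summed to 5.61%, 5.42%, 5.84%, 6.33% and 6.28% of the counts of the 5 control libraries, and to 4.47%, 3.97%, 3.47%, 4.85% and 3.84% in the dehydrated ones. In the rehydrated libraries they summed to 4.501%, 5.51%, 5.25%, 4.77% and 6.00%. As a share of the raw counts, every dehydrated library was below every control library, while the rehydrated libraries overlapped with both other groups. That separation was lost on library totals scaled by edgeR's TMM factors, which the tests use. Dehydrated replicate 4 then came to 6.40%, above control replicates 1 and 2 at 6.27% and 6.09%. The group means were 5.90% ± 0.401 (SD, n = 5) for control, 4.12% ± 0.541 for dehydrated and 5.21% ± 0.594 for rehydrated camels. The choice of the members used the control libraries, whereas the dehydrated and rehydrated libraries played no part in it.

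**Figure D1:**
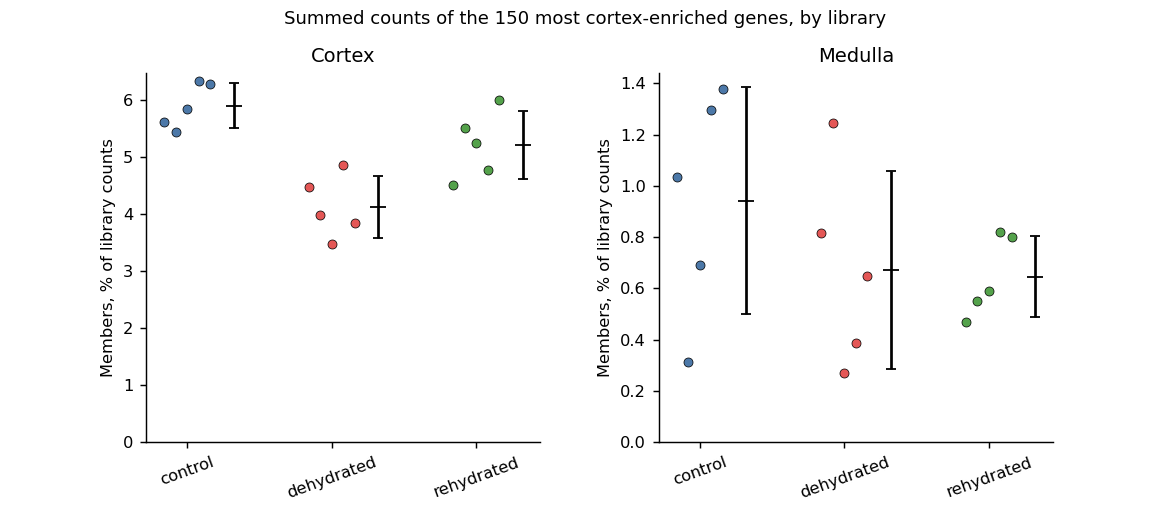
Summed counts of the 150 members as a percentage of all counts of a library, for cortex (left) and medulla (right), with 5 libraries per group as points and the mean ± SD beside them. In the cortex the dehydrated libraries (3.47% to 4.85%) lie below the control libraries (5.42% to 6.33%), and in the medulla the 3 groups overlap.

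The medulla held far less of this RNA and varied more from camel to camel. The members took 0.313% to 1.38% of the counts in control, 0.268% to 1.24% in dehydrated and 0.468% to 0.820% in rehydrated medulla, and the 3 ranges overlapped. A single library often set the extremes: control replicate 2 was the lowest of its group for 124 of the 150 members, dehydrated replicate 3 for 115, and dehydrated replicate 2 was the highest of its group for 121. The median SD of log2(CPM + 1) over the members was 0.86 in control, 0.99 in dehydrated and 0.53 in rehydrated medulla. It was 0.39, 0.29 and 0.45 in the same groups of the cortex. For the other 7798 tested genes of at least 10 CPM in control cortex, it was 0.22 to 0.28 in the 3 medulla groups.

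**Figure D2:**
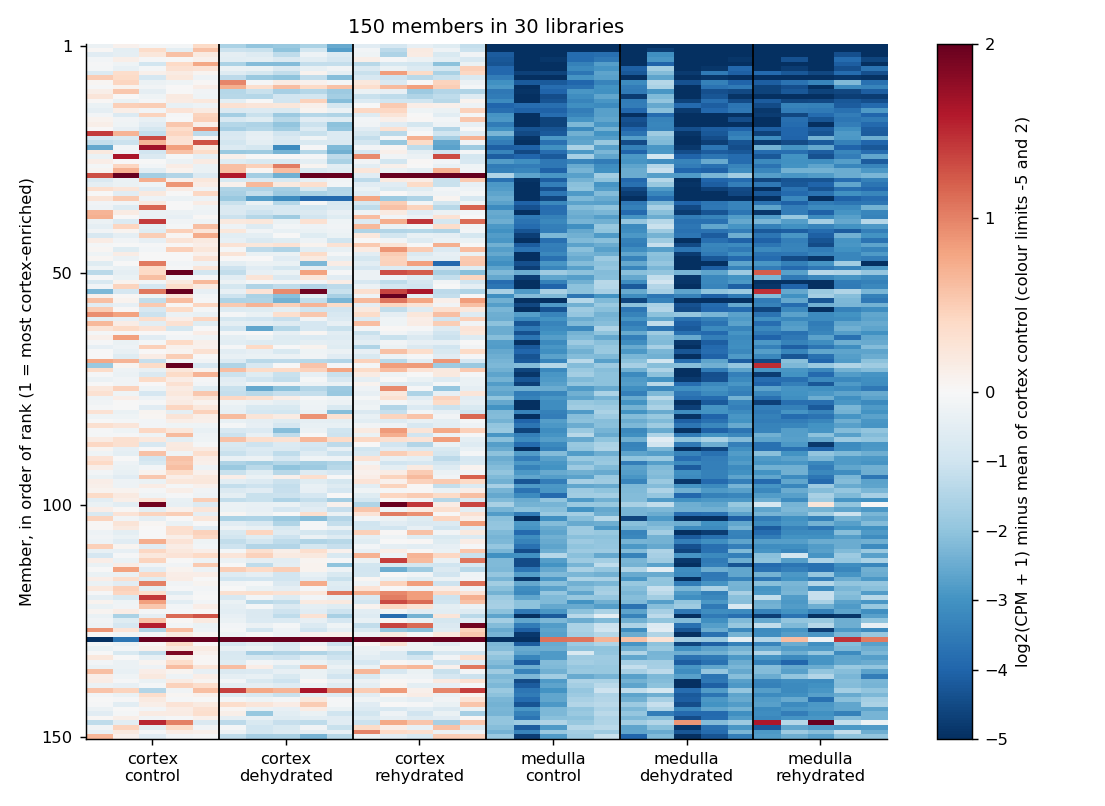
Level of each member (rows, most cortex-enriched at the top) in each of the 30 libraries (columns, 5 per group), as log2(CPM + 1) minus the mean of the control cortex, with blue below and red above that mean. Most rows are light blue in dehydrated cortex and blue in the medulla, where control replicate 2 and dehydrated replicate 3 form darker columns and a few rows show red single libraries.

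Levels of marker genes are given beside these shares. The summed level of the 4 proximal tubule genes, of which *MIOX* is a member, was 1619 to 3406 CPM in control, 754 to 1235 CPM in dehydrated and 2760 to 4145 CPM in rehydrated cortex, so that the dehydrated libraries lay below both other groups. The 150 genes chosen by the same rule with the tissues exchanged took 0.0936% to 0.169% of the counts in control cortex, 0.122% to 0.305% in dehydrated cortex and 0.0880% to 0.202% in rehydrated cortex. Over the 15 cortex libraries the 2 sums had a Pearson correlation of -0.83 and a Spearman correlation of -0.83, a description over libraries that share a total and fall in 3 groups. The summed level of the 3 endothelial genes with a symbol (*CDH5*, *PECAM1* and *VWF*) was 176 to 240.4 CPM in control, 270.0 to 370.2 CPM in dehydrated and 187 to 249 CPM in rehydrated cortex. The summed level of the 2 thick ascending limb genes with a symbol (*UMOD* and *PPP1R1A*) was 2697 to 4221 CPM, 3931 to 7142 CPM and 2615 to 4694 CPM in the same groups. The summed level of the 4 collecting duct and medulla genes with a symbol (*AQP2*, *AQP3*, *HSD11B2* and *SLC6A12*) overlapped between the 3 groups, at 496 to 731 CPM, 403 to 571 CPM and 370.1 to 564 CPM. That sum is mostly *HSD11B2* and covers opposite moves. *HSD11B2* had means of 420 CPM in control and 277 CPM in dehydrated cortex, beside 184 CPM in control medulla. In the same 2 cortex groups *AQP2* had means of 163 and 194 CPM, *AQP3* 6.16 and 33.1 CPM, and *SLC6A12* 0.498 and 1.57 CPM. The part of the makeup of the pieces in the results that follow was not tested.

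Rehydrated against dehydrated cortex compares 2 groups that played no part in the choice of members. The control libraries still entered the shared fit of all 30 libraries, and with it the estimate of spread. Of the 150 members, 11 were higher and 1 was lower in rehydrated camels, with *p*adj under 0.05 (edgeR's quasi-likelihood F-test, with p-values adjusted over all tested genes by the method of Benjamini and Hochberg). That is 8.0% of the members called against 2.32% of all tested genes called, for higher levels alone 7.33% against 1.07%, and for lower levels 0.667% against 1.24%. The fitted log2 fold change was above 0 for 113 members and below 0 for 37, and its median was 0.45 (quartiles 0.05 and 0.88), beside 0.03 over all tested genes. The 5 rehydrated libraries all lay above the 5 dehydrated ones for 24 members (16.0%, against 1.41% of all tested genes), and all lay below for 1 (0.667%, against 3.61%). At an unadjusted p-value under 0.05, 39 members were higher and 2 were lower, against 7.41% and 7.69% of all tested genes.

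The count of 12 depended on some of the libraries. It was 12 without rehydrated cortex replicate 4, and 9 without dehydrated replicate 4 or rehydrated replicate 1 or 5. It fell to 3 without dehydrated cortex replicate 1, 2 or 3, to 5 without dehydrated replicate 5, to 4 without rehydrated replicate 2 and to 5 without rehydrated replicate 3, while the median log2 fold change of the members stayed between 0.35 and 0.59 over all 10 fits that left out a library. It was 21 with only the libraries compared, 7 of them among the 12.

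Dehydrated against control cortex gave 18 members lower and 0 higher at *p*adj under 0.05 (edgeR), which is 12.0% of the members against 2.45% of all tested genes in either direction, 1.17% lower and 1.27% higher. The fitted log2 fold change was below 0 for 133 members, with a median of -0.69 (quartiles -0.995 and -0.31) beside 0.00329 over all tested genes. At an unadjusted p-value under 0.05, 56 members were lower and 1 was higher, against 7.21% and 7.48% of all tested genes. All 5 dehydrated libraries lay below all 5 control libraries for 45 members (30.0%, against 2.61% of all tested genes), and all lay above for 3 (2.00%, against 4.23%). The members were chosen for high levels in these control libraries, so the lower levels against them are not independent of the choice. The count fell to 10 without control replicate 4 or 5 or without dehydrated replicate 1, to 8 without dehydrated replicate 2, to 6 without dehydrated replicate 3 and to 9 without dehydrated replicate 5. It was 46 with only the libraries compared, 17 of them among the 18.

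**Figure D3:**
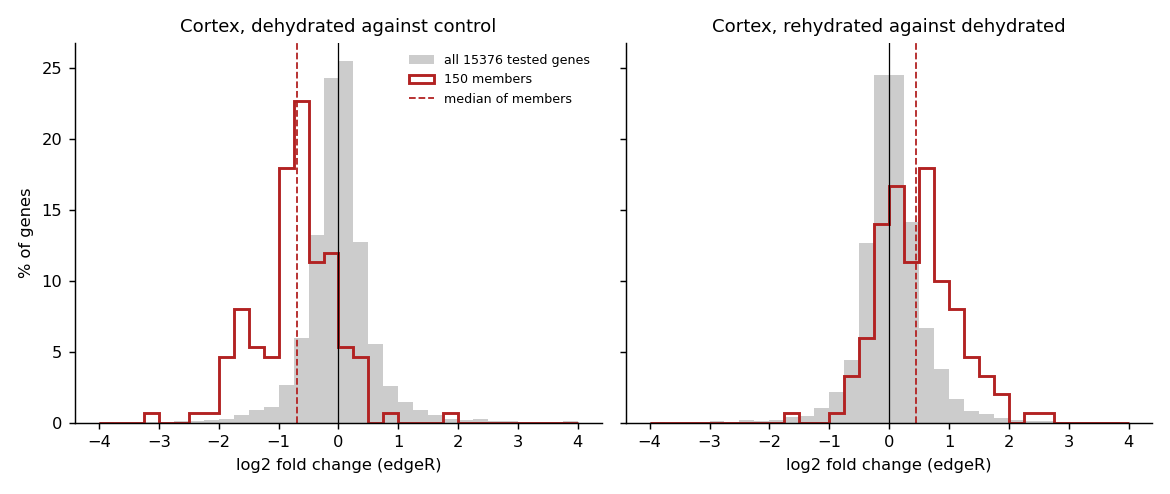
Distribution of the fitted log2 fold change in the cortex for the 150 members (red line) and for all 15376 tested genes (grey), as a percentage of genes per bin of width 0.25, with changes beyond 4 placed in the end bins. The members' median (dashed) is -0.69 for dehydrated against control and 0.45 for rehydrated against dehydrated camels.

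Rehydrated against control cortex gave 0 members at *p*adj under 0.05 (edgeR), where 0.0845% of all tested genes were called. The smallest adjusted p-value of a member was 0.154. At an unadjusted p-value under 0.05, 1 member was higher and 17 were lower, against 4.3% and 3.98% of all tested genes, and DESeq2 called 1. The median log2 fold change was -0.24, with 107 members below 0, and 8 members lay below the control libraries without overlap (5.33%, against 0.839% of all tested genes). Ordered by their mean CPM, 75 members ran from control through rehydrated down to dehydrated cortex, an order seen in 15.2% of all tested genes. Another 30 (against 19.9% of all tested genes) had their highest mean in rehydrated and their lowest in dehydrated cortex, a share of the members near that background. The rule chose members for high levels in these control libraries. Lower levels against control, and an order led by control, are therefore not independent of the choice, and their shares support no direction.

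The 6 members with a symbol that passed the test both against control and against rehydrated cortex are given next, with their values side by side. Both comparisons use the same 5 dehydrated libraries, so a library set that is low there shifts both, and passing both tests is no independent support for either. These members are *ABHD1*, *F13B*, *CAGE1*, *TMEM25*, *MAT1A* and *DAPL1*.

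*ABHD1*, which encodes a protein of the alpha/beta hydrolase fold family, lies on chromosome 15 of CamDro2 (19359089 to 19365579, plus strand). It was at 138, 86.9, 60.2, 152 and 111 CPM in control cortex, at 35.3, 30.98, 38.0, 31.1 and 35.6 CPM in dehydrated cortex and at 93.3, 53.5, 58.3, 53.9 and 61.3 CPM in rehydrated cortex. The dehydrated libraries lay close together and below every library of the other groups, and rehydrated replicate 1 stood above the rest of its group. The log2 fold change was -1.73 (SE 0.22, edgeR *p*adj = 3.4e-05) for dehydrated against control and 0.92 (SE 0.21, edgeR *p*adj = 0.0202) for rehydrated against dehydrated camels. The second call was lost without dehydrated replicate 2 (edgeR *p*adj = 0.0576) or rehydrated replicate 1 (edgeR *p*adj = 0.0559).

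*F13B*, the carrier subunit of the clotting factor that cross-links fibrin, lies on chromosome 23 (4169922 to 4189215, minus strand). Its levels were 32.9, 23.9, 27.6, 46.7 and 25.6 CPM in control, 7.72, 11.3, 6.72, 7.91 and 11.1 CPM in dehydrated and 33.5, 21.5, 34.6, 19.2 and 31.9 CPM in rehydrated cortex. Dehydrated camels did not overlap with either other group, and the rehydrated and control ranges overlapped. The log2 fold changes were -1.86 (SE 0.33, edgeR *p*adj = 0.00205) and 1.68 (SE 0.33, edgeR *p*adj = 0.00602), and both calls held in each of the 10 fits that left out a library.

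*CAGE1*, a gene better known from testis and tumours, was at 56.3, 66.6, 41.6, 54.1 and 31.3 CPM in control, 21.6, 7.28, 10.9, 16.7 and 13.0 CPM in dehydrated and 40.3, 93.7, 46.1, 11.8 and 34.9 CPM in rehydrated cortex. Control and dehydrated camels did not overlap, and rehydrated replicate 4 fell within the dehydrated range while replicate 2 was the highest library of all. The log2 fold changes were -1.87 (SE 0.34, edgeR *p*adj = 0.00227) and 1.77 (SE 0.34, edgeR *p*adj = 0.00475), and both calls held in every fit that left out a library, whereas the second was lost with only the libraries compared (edgeR *p*adj = 0.0901). *CAGE1* lies on chromosome 20 (4370022 to 4400571, minus strand).

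*TMEM25*, a membrane protein of the immunoglobulin superfamily, was at 163, 131, 319, 232 and 167 CPM in control, 81.7, 102, 79.6, 67.8 and 72.1 CPM in dehydrated and 127, 189.7, 196, 125 and 214 CPM in rehydrated cortex. The dehydrated libraries lay below all others. Its log2 fold changes were -1.39 (SE 0.27, edgeR *p*adj = 0.00463) and 1.12 (SE 0.27, edgeR *p*adj = 0.0249), of which the second was lost in 7 of the 10 fits that left out a library (edgeR *p*adj up to 0.0642).

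*MAT1A* encodes the enzyme that makes S-adenosylmethionine, the cell's main methyl donor, from methionine. It was at 109, 118, 109.6, 48.4 and 90.9 CPM in control, 44.7, 14.2, 33.7, 50.9 and 42.1 CPM in dehydrated and 82.3, 92.2, 86.8, 58.3 and 110.0 CPM in rehydrated cortex. The rehydrated libraries lay above the dehydrated ones, and control replicate 4 fell within the dehydrated range. The log2 fold changes were -1.38 (SE 0.33, edgeR *p*adj = 0.0205) and 1.24 (SE 0.33, edgeR *p*adj = 0.0415), and the second was lost in 8 of 10 fits that left out a library (edgeR *p*adj up to 0.12).

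*DAPL1*, a small protein related to a regulator of cell death, had low levels of 12.6, 10.7, 14.9, 18.5 and 15.1 CPM in control, 5.99, 9.06, 4.80, 8.63 and 7.37 CPM in dehydrated and 15.1, 15.8, 20.5, 11.4 and 12.7 CPM in rehydrated cortex. The dehydrated libraries were again the lowest, without overlap. Its log2 fold changes were -1.06 (SE 0.28, edgeR *p*adj = 0.0397) and 1.10 (SE 0.28, edgeR *p*adj = 0.0318), and each was lost in 6 of 10 fits that left out a library (edgeR *p*adj up to 0.135). The call against control was also lost with the RNA integrity number as a covariate (edgeR *p*adj = 0.143).

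**Figure D4:**
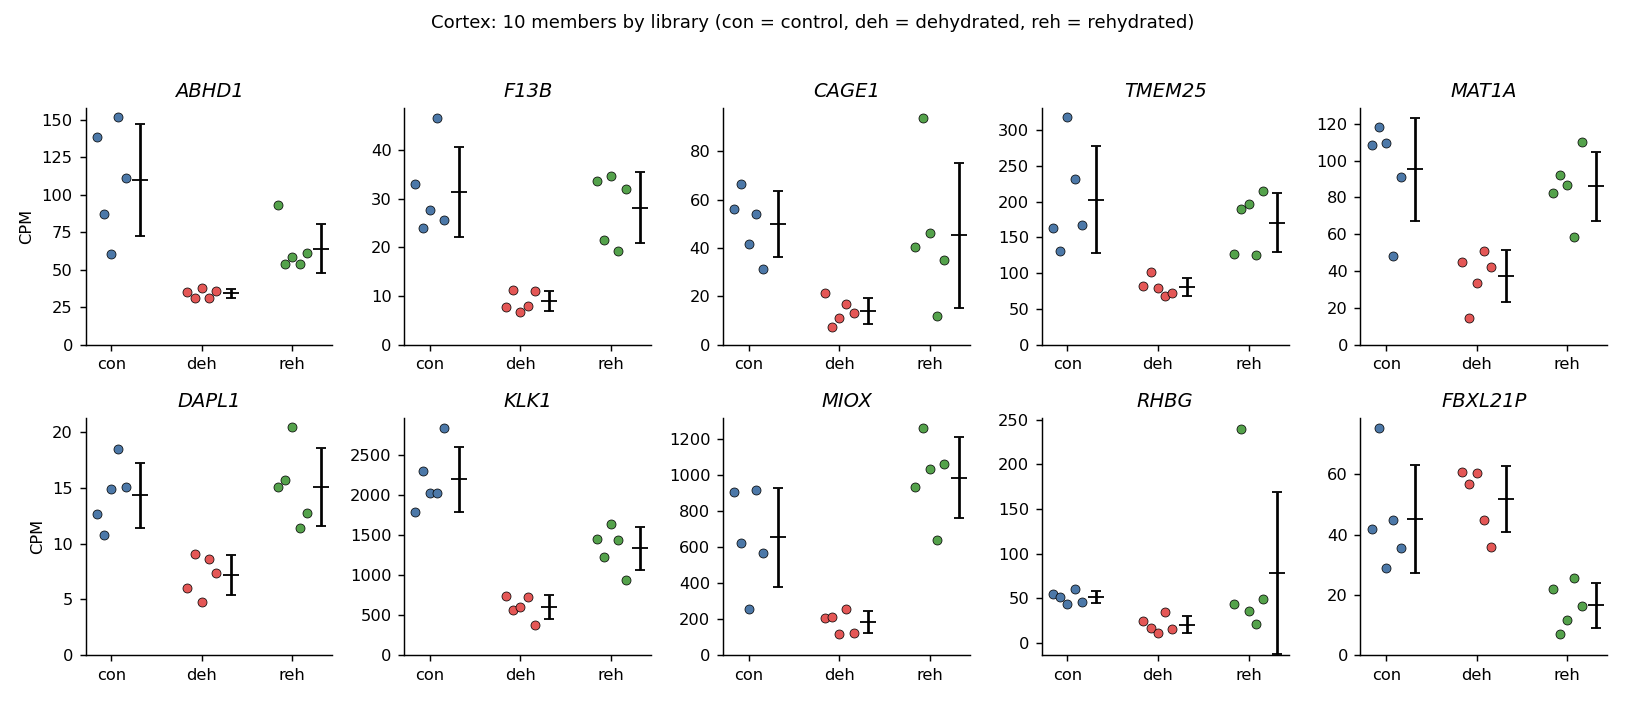
CPM of 10 members in the cortex by library (points, 5 per group) with the mean ± SD beside them, for control, dehydrated and rehydrated camels. For the 6 genes called in both comparisons the dehydrated mean is the lowest, with a control library of *MAT1A* and a rehydrated library of *CAGE1* inside the dehydrated range, *KLK1* and *MIOX* follow the same order of dehydrated below rehydrated, *RHBG* has 1 rehydrated library at 239 CPM, and *FBXL21P* is lowest in rehydrated camels.

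Among secreted proteins, *KLK1* had the highest rank of all members. It encodes tissue kallikrein, which the connecting tubule releases and which frees kinins from kininogen. Its levels were 1781, 2304, 2022, 2024 and 2838 CPM in control, 731, 558, 605, 728 and 378 CPM in dehydrated and 1453, 1220.2, 1635, 1431 and 936 CPM in rehydrated cortex, so that none of the 3 groups overlapped with another. It was lower in dehydrated than in control camels (log2 fold change -1.92, SE 0.49, edgeR *p*adj = 0.029), and this call was lost in 7 of 10 fits that left out a library (edgeR *p*adj up to 0.094). It was also lost with the RNA integrity number as a covariate (edgeR *p*adj = 0.0649). Rehydrated against dehydrated camels gave a log2 fold change of 1.16 (SE 0.48, edgeR *p*adj = 0.23). *KNG1*, which encodes the kininogen on which kallikrein acts, had log2 fold changes of -0.59 (edgeR *p*adj = 0.53) and -0.03 (edgeR *p*adj = 0.99) in the same comparisons.

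Of the 7 members that encode secreted proteins, 2 were called lower in dehydrated cortex (*KLK1* and *F13B*) and 1 higher in rehydrated cortex (*F13B*). For these counts and those of the other roles and lists, the shares over all tested genes are 1.17% lower and 1.27% higher in dehydrated against control cortex, and 1.07% higher and 1.24% lower in rehydrated against dehydrated cortex. The apolipoproteins of high-density lipoprotein, *APOA1* and *APOA2*, had log2 fold changes of -1.67 (edgeR *p*adj = 0.23) and -0.75 (edgeR *p*adj = 0.66) in dehydrated against control cortex, and their libraries overlapped between all 3 groups. *C9*, a late component of complement, had -0.44 (edgeR *p*adj = 0.77). *RBP4*, the carrier of retinol in plasma, was the only one of the 7 with a fitted change above 0, at 0.42 (SE 0.46, edgeR *p*adj = 0.77), and ranged from 2349.5 to 3259 CPM in control and from 3057 to 5052 CPM in dehydrated cortex. Symbols outside the naming rule stated in the methods, such as *RBP4* and *KNG1*, were chosen after their values were seen.

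The members at the cell surface or in transport were all below 0 in dehydrated against control cortex (8 of 8, median log2 fold change -1.26), and 1 of them was called (*TMEM25*). *RHBG*, an ammonia transporter of the basolateral membrane in distal nephron and collecting duct, was at 54.7, 51.8, 43.3, 60.3 and 46.0 CPM in control, 24.4, 16.5, 11.2, 35.1 and 15.8 CPM in dehydrated and 44.2, 239, 35.9, 21.5 and 49.7 CPM in rehydrated cortex. Dehydrated camels lay below control camels without overlap, and rehydrated replicate 2 was far above the others. The difference between rehydrated and dehydrated camels (log2 fold change 1.99, SE 0.50, edgeR *p*adj = 0.0278) rests on that library: without it the log2 fold change was 0.85 (edgeR *p*adj = 0.271), and the call was lost in 5 of the 10 fits that left out a library. *RHCG*, the related transporter of the apical membrane, was at 301 to 459 CPM in dehydrated, 491 to 666 CPM in control and 272 to 496 CPM in rehydrated cortex, with log2 fold changes of -0.60 (edgeR *p*adj = 0.36) and -0.02 (edgeR *p*adj = 0.99).

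*ANPEP*, aminopeptidase N of the brush border, was at 950.0, 762, 598, 1283 and 947 CPM in control, 328, 298, 221, 417 and 213 CPM in dehydrated and 783, 591, 479.5, 747 and 659 CPM in rehydrated cortex. The dehydrated libraries lay below all the others, yet the log2 fold changes of -1.65 (SE 0.52, edgeR *p*adj = 0.087) and 1.13 (SE 0.51, edgeR *p*adj = 0.28) did not pass the threshold. *NOX4*, an NADPH oxidase of tubule cells, had -1.76 (SE 0.55, edgeR *p*adj = 0.09) in dehydrated against control camels without overlap of the libraries. *ABCC2*, an apical export pump for conjugated compounds, had -0.84 (edgeR *p*adj = 0.51), and *AOC3*, an amine oxidase, had -1.19 (edgeR *p*adj = 0.3).

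Among enzymes, 14 of 14 members with a symbol were below 0 in dehydrated against control cortex (median log2 fold change -0.73), of which *ABHD1* and *MAT1A* were called, and 12 of 14 were above 0 in rehydrated against dehydrated cortex, of which 4 were called. *MIOX*, which opens the ring of *myo*-inositol and is largely restricted to the proximal tubule, was at 906, 623, 255, 915 and 567 CPM in control, 205, 211, 114, 255 and 121 CPM in dehydrated and 935, 1258, 1032, 639 and 1059 CPM in rehydrated cortex. The rehydrated libraries were far above the dehydrated ones, and dehydrated replicate 4 equalled the lowest control library to within 1 CPM. The log2 fold change was 2.46 (SE 0.64, edgeR *p*adj = 0.0343) for rehydrated against dehydrated camels, lost in 7 of 10 fits that left out a library (edgeR *p*adj up to 0.102), and -1.86 (SE 0.63, edgeR *p*adj = 0.12) for dehydrated against control camels. *PDE1B*, a calcium-dependent phosphodiesterase named here after its values were seen, was the other enzyme called higher in rehydrated cortex (log2 fold change 0.80, SE 0.22, edgeR *p*adj = 0.049), and it was lost in 9 of 10 fits that left out a library.

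Other enzymes did not pass the test in dehydrated against control cortex. *GSTZ1*, of tyrosine breakdown, had a log2 fold change of -0.41 (SE 0.19, edgeR *p*adj = 0.31) in dehydrated against control cortex, *PRODH2*, of hydroxyproline breakdown, -0.44 (SE 0.40, edgeR *p*adj = 0.7) and *MOCOS*, which activates molybdenum enzymes, -0.04 (SE 0.38, edgeR *p*adj = 0.99). *ENO2*, an isoform of the glycolytic enzyme enolase, had -0.84 (SE 0.25, edgeR *p*adj = 0.068) and *DNPH1*, a nucleotide hydrolase, had -1.08 (SE 0.31, edgeR *p*adj = 0.058), and for both the dehydrated libraries lay below all control libraries. *AGPAT4*, of phospholipid synthesis, had -0.51 (SE 0.38, edgeR *p*adj = 0.6). *ECHS1*, a mitochondrial enzyme of fatty acid oxidation, took 7.24% of the members' counts in control cortex. It was at 2818 to 5290 CPM in control, 2428 to 4002 CPM in dehydrated and 2158 to 3126 CPM in rehydrated cortex, with a log2 fold change of -0.37 (SE 0.27, edgeR *p*adj = 0.57) in rehydrated against dehydrated camels. Per length, its mean in control cortex was 2296 CPM per kilobase, beside a median of 57.7 CPM per kilobase over the members, and it was 1760 CPM per kilobase in dehydrated and 1347 CPM per kilobase in rehydrated cortex.

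*NOL4*, a nucleolar protein known mainly from nervous tissue, was at 43.3, 58.5, 28.8, 39.4 and 35.3 CPM in control, 14.1, 17.7, 12.1, 14.2 and 10.8 CPM in dehydrated and 31.3, 29.9, 10.53, 13.9 and 13.6 CPM in rehydrated cortex. It was lower in dehydrated than in control camels (log2 fold change -1.60, SE 0.39, edgeR *p*adj = 0.0208). This call was lost in 4 of 10 fits that left out a library, and with the RNA integrity number as a covariate (edgeR *p*adj = 0.0537). Of the 5 rehydrated libraries, 3 were below the highest dehydrated one. *CALB1*, the calcium-binding protein of the distal convoluted and connecting tubules, was at 2040.2, 1910.4, 529.8, 1094 and 1047 CPM in control, 742, 462, 482, 453 and 428 CPM in dehydrated and 1642, 469, 813, 2182 and 665 CPM in rehydrated cortex. The dehydrated libraries overlapped with both other groups, and neither log2 fold change (-1.38, edgeR *p*adj = 0.19, and 1.14, edgeR *p*adj = 0.3) passed the threshold.

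*FBXL21P* went against the other called members. RefSeq names it as a pseudogene of an F-box protein, and it lies on chromosome 3 (22692089 to 22698093, minus strand). It was at 41.8, 75.3, 28.7, 45.0 and 35.6 CPM in control, 60.9, 56.7, 60.4, 44.9 and 35.8 CPM in dehydrated and 21.9, 7.11, 11.7, 25.6 and 16.3 CPM in rehydrated cortex. The rehydrated libraries lay below all the others, and control and dehydrated libraries overlapped. It was lower in rehydrated than in dehydrated camels in the cortex (log2 fold change -1.66, SE 0.41, edgeR *p*adj = 0.0263) and in the medulla (-1.70, SE 0.45, edgeR *p*adj = 0.0315). Its medulla levels were 14.6, 29.5, 4.05, 7.03 and 6.32 CPM in dehydrated and 2.34, 3.11, 2.34, 3.60 and 7.23 CPM in rehydrated camels, where rehydrated replicate 5 fell within the dehydrated range. Each call was lost in 5 of 10 fits that left out a library, with edgeR *p*adj up to 0.0733 in the cortex and 0.148 in the medulla.

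Of the 115 members without a symbol, 10 were called lower in dehydrated against control cortex and 2 higher in rehydrated against dehydrated cortex (beside 1.17% and 1.07% of all tested genes), with median log2 fold changes of -0.66 and 0.43. ENSCDRG00005007841 was called in both (-2.25, SE 0.45, edgeR *p*adj = 0.00568, and 1.73, SE 0.45, edgeR *p*adj = 0.0344), and it was at 10.8 to 33.5 CPM in control, 3.41 to 7.52 CPM in dehydrated and 10.9 to 23.7 CPM in rehydrated cortex. The dehydrated libraries of this gene lay below those of both other groups, and the second call was lost in 7 of 10 fits that left out a library. ENSCDRG00005017897 had the lowest fitted value of all members in dehydrated against control cortex (-3.004, SE 0.81, edgeR *p*adj = 0.0403). This call was lost in 8 of 10 fits that left out a library, and with the RNA integrity number as a covariate (edgeR *p*adj = 0.0819). The gene was at 363, 437, 253, 249.8 and 257 CPM in control and 83.9, 44.1, 33.3, 19.3 and 19.5 CPM in dehydrated camels. Its rehydrated libraries were at 523, 86.3, 102, 315 and 173 CPM, above every dehydrated library.

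In the medulla few members passed the test. Rehydrated against dehydrated medulla gave 1 member, *FBXL21P* (0.667% of the members, against 3.67% of all tested genes, 2.24% higher and 1.43% lower), dehydrated against control medulla gave 1 lower (0.667%, against 1.68%, of which 0.527% higher and 1.16% lower), and rehydrated against control medulla gave 1 lower and 1 higher (1.33% together, against 0.813%, of which 0.611% higher and 0.202% lower). At an unadjusted p-value under 0.05, 16 members were higher and 11 lower in rehydrated against dehydrated medulla (11.7% and 8.29% of all tested genes). In dehydrated against control medulla 31 were lower and 1 higher (7.58% and 5.85%). The median log2 fold change of the members was -0.04 in rehydrated against dehydrated medulla, and it was -0.22 without dehydrated replicate 3 and 0.32 without dehydrated replicate 2, so its direction turned with those libraries. In dehydrated against control medulla it was -0.40, within a range of -0.80 (without dehydrated replicate 2) to -0.20 (without dehydrated replicate 3), and 8 and 13 members were called without control replicate 2 and without dehydrated replicate 2. In rehydrated against control medulla it was -0.58, with 32 members lower and 4 higher at an unadjusted p-value under 0.05 (6.04% and 8.68% of all tested genes).

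The member called lower in dehydrated medulla, ENSCDRG00005001870, was at 172, 16.2, 85.4, 167 and 274 CPM in control and 29.2, 100.3, 3.83, 14.4 and 41.8 CPM in dehydrated camels, with a log2 fold change of -1.99 (SE 0.53, edgeR *p*adj = 0.0496). Control replicate 2 was within the dehydrated range. *ECHS1* was lower in rehydrated than in control medulla (log2 fold change -1.08, edgeR *p*adj = 0.0493), at 229, 409, 336, 531 and 508 CPM against 1078, 545, 723, 1187 and 580.3 CPM, without overlap. ENSCDRG00005006944 was higher in the same comparison (log2 fold change 3.17, SE 0.79, edgeR *p*adj = 0.0493), at 60.4, 6.36, 129, 7.83 and 15.0 CPM against 4.09 to 5.95 CPM, with 2 libraries far above the other 3. Each of these 3 calls was lost in 8 of the 10 fits that left out a library.

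The members remained cortex genes in camels that the rule did not use. In dehydrated camels 149 of the 150 were higher in cortex than in medulla at *p*adj under 0.05 (edgeR), which is 99.3% against 31% of all tested genes, and in rehydrated camels 146 were, which is 97.3% against 28.1%. The median log2 fold change between the tissues was 3.15 in dehydrated and 3.48 in rehydrated camels, beside -0.07 and -0.10 over all tested genes. The 5 cortex libraries lay above the 5 medulla libraries for 136 members in dehydrated camels (90.7%, against 13% of all tested genes) and for 139 in rehydrated camels (92.7%, against 7.69%).

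**Figure D5:**
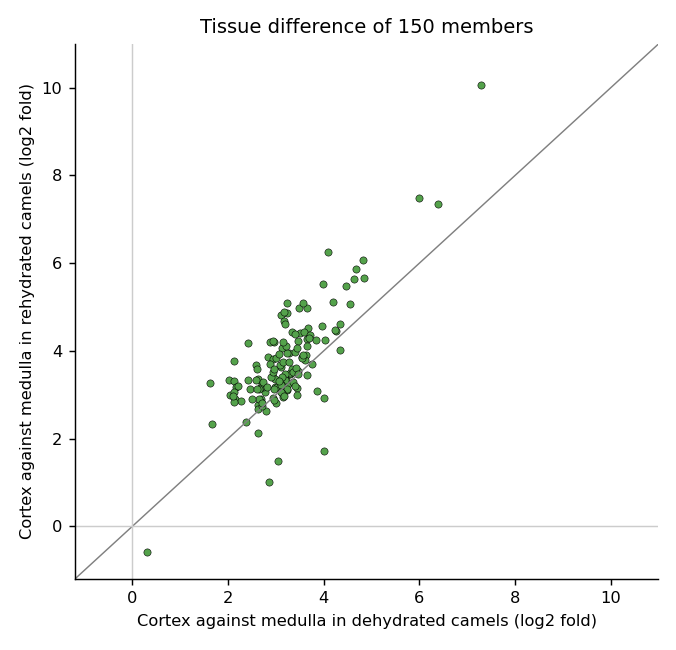
Fitted log2 fold change of cortex against medulla for each of the 150 members (points) in dehydrated (horizontal axis) and rehydrated camels (vertical axis), with the line of equal values. All but 1 member lie above 0 on both axes, the medians are 3.15 and 3.48, and the exception is ENSCDRG00005006944 at 0.30 and -0.60.

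ENSCDRG00005006944, chosen for mention after its values were seen, was the member not called between the tissues in either condition (log2 fold change 0.30, edgeR *p*adj = 0.74, and -0.60, edgeR *p*adj = 0.474). The named members with the smallest tissue difference were *CALB1* (log2 fold change 1.62, SE 0.54, edgeR *p*adj = 0.0095), *AHCYL2*, a relative of adenosylhomocysteinase (2.02, SE 0.43), and *TMEM25* (2.04, SE 0.28) in dehydrated camels. In rehydrated camels they were *RHCG* (2.13, SE 0.31), *FBXL21P* (2.67, SE 0.46) and *DNPH1* (2.84, SE 0.33). *KLK1* had a difference of 6.40 (SE 0.61) in dehydrated and 7.36 (SE 0.63) in rehydrated camels, the largest of the named members in both.

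Whether the tissue difference itself differed between rehydrated and dehydrated camels was tested as an interaction, which called 0 members at *p*adj under 0.05 (edgeR), against 0.0195% of all tested genes. The smallest adjusted p-value of a member was 0.267. DESeq2 also called 0, and at an unadjusted p-value under 0.05, 13 members had a larger difference in rehydrated camels and 0 a smaller one, against 4.55% and 4.85% of all tested genes. The members' median was 0.50, with 123 above 0, but it ranged from 0.00624 without dehydrated medulla replicate 2 to 0.69 without dehydrated medulla replicate 3. The responses of the members in cortex and medulla were therefore not shown to differ.

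The members were spread over 38 chromosomes or scaffolds, and 18 of them (12.0%) lay within 100 kb of another member, in 9 pairs. Of the 7798 other genes of at least 10 CPM in control cortex, 419 (5.37%) lay within 100 kb of a member. The median transcribed length used for counting was 1952 bases for members and 2341.5 bases for those genes. *PRODH2* on chromosome 9 (16184679 to 16196604) belonged to such a pair, with an unnamed gene at 16157554 to 16175657.

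Genes of the members' pathways that are not members carried few symbols. Of 43 listed genes of fatty acid, ketone body and peroxisome metabolism, 16 were tested and none was a member. The list does not hold *ECHS1*, a member that is also an enzyme of fatty acid oxidation. In dehydrated against control cortex 4 of the 16 were lower and 0 higher at *p*adj under 0.05 (edgeR), with 16 of 16 fitted values below 0, and in rehydrated against dehydrated cortex 4 were higher and 0 lower. Of 24 listed genes of renin release and the distal cortex, 11 were tested, and *CALB1*, *KLK1*, *RHBG* and *RHCG* were members. In that list 2 genes were lower and 1 was higher in dehydrated against control cortex, and 1 was higher and 1 lower in rehydrated against dehydrated cortex. Of 58 listed genes of amino acid metabolism, 13 were tested with *PRODH2* as the only member on the list, and 1 was lower and 1 higher in dehydrated against control cortex. The members *GSTZ1* and *MAT1A*, which also act on amino acids, are not on it. Of 48 listed genes of detoxification and vitamin D metabolism, 13 were tested with *ABCC2* as the only member, and in dehydrated against control cortex 4 were higher and 2 lower, while in rehydrated against dehydrated cortex 2 were higher and 1 lower. Their summed level was 3463 to 4167 CPM in control, 4727 to 5701 CPM in dehydrated and 2792 to 5238 CPM in rehydrated cortex. It was higher in every dehydrated than in any control library, but that rise follows 1 gene and is not shared by the list. *FMO5* had means of 1107 CPM in control, 2986 CPM in dehydrated and 1174 CPM in rehydrated cortex. *MGST1* had means of 1276, 682 and 1072 CPM in the same groups. In dehydrated against control cortex 7 of the 13 fitted values were above 0 and 6 below. The symbols of these genes came from lists chosen on these samples, so the counts are not independent evidence of a direction.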

How the data were processed

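The authors deposited raw counts per gene, 1 column per library, made by featureCounts 1.6.2 (per the file header) on CamDro2 with Ensembl release 100, by read pair with reverse strandedness. The methods name STAR and the file header Rsubread as the aligner, and which made the alignments is not settled. Nothing was normalized before deposit.

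CPM here are counts divided by the library total and scaled to 1 common total. All 30 libraries entered a fit of 6 groups in edgeR 4.0.16 (R 4.3.3) after filterByExpr (minimum count 10, minimum total 15) and TMM scaling, with the current quasi-likelihood method and Benjamini-Hochberg adjustment over 15376 genes. The biological coefficient of variation was 34.0%, which exceeds counting error at these depths for all but low counts. On counts simulated from these libraries for dehydrated against control cortex (15136 genes), the fit recovered 51.5%, 92.5% and 98.5% of genes changed by 1, 2 and 3 on the log2 scale. The changed genes were drawn from those above a minimum mean count. Alternatives were DESeq2 1.42.0, other size factors, no filter, fewer libraries, RNA integrity number or replicate number as a term, and each library left out. The older edgeR method was added after seeing the data.

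Members and lists were chosen with earlier results of these data known. Named genes are the 10 members with a symbol and the highest rank, up to 8 called in each direction per comparison within a tissue, those called in both cortex comparisons, those of the role lists, and the 3 with the smallest tissue difference in dehydrated and in rehydrated camels. Cortex and medulla libraries of 1 individual share its number in the labels, and the correlation of same-camel deviations across genes averaged 0.139 in control, 0.0934 in dehydrated and 0.0487 in rehydrated camels, where it ranged from -0.42 to 0.41. There the library names carry shifted numbers and 4 of 5 cortex libraries correlated best with a medulla library of another number, at 0.182 to 0.543, so the pairing of rehydrated camels is in doubt. Within a tissue, camels share only a number. No sequences are given, since none were used here.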

Additional observations from a re-analysis of the deposited data

Results flagged for a closer look

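Of 84 sets of 5 libraries looked at (13 named genes that passed a test within a tissue and the summed level, in 6 groups each), 6 had a library far from the other 4 by Dixon's ratio, and chance flags about 5% of such sets. *RHBG* in rehydrated cortex replicate 2 was at 239 CPM, with the others at 21.5 to 49.7 CPM. *ABHD1* in rehydrated cortex replicate 1 was at 93.3 CPM, with the others at 53.5 to 61.3 CPM. In the medulla, *CAGE1* was at 5.95 CPM in control replicate 4 (others 7.65 to 8.11 CPM), *F13B* at 1.84 CPM in rehydrated replicate 3 (others 4.17 to 4.96 CPM), *FBXL21P* at 7.23 CPM in rehydrated replicate 5 (others 2.34 to 3.60 CPM) and *KLK1* at 30.99 CPM in dehydrated replicate 2 (others 2.27 to 9.47 CPM). Medulla dehydrated replicate 2 was also the highest of its group for 121 of the 150 members.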

How the results depend on the processing

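The members' higher level in cortex than in medulla kept its calls within 1.5 times under every alternative, with 149 to 149 members called in dehydrated and 146 to 149 in rehydrated camels when a library was left out, and the interaction called 0 in every fit. For rehydrated against dehydrated cortex the count of 12 became 7 with edgeR's older method, 21 with only the libraries compared, 5 with the replicate block and 3 to 12 with a library left out. For dehydrated against control cortex the count of 18 became 10 with the older method, 9 with the RNA integrity number as a covariate, 46 with only the libraries compared and 6 to 18 with a library left out, while the replicate block gave 12. For rehydrated against control cortex DESeq2 gave 1, and leaving out a library 0 to 1. In rehydrated against dehydrated medulla the count of 1 became 3 with DESeq2, 0 with only the libraries compared, 0 with the replicate block and 0 to 3 with a library left out. In dehydrated against control medulla it became 7 with DESeq2, 0 with DESeq2's size factors, without a filter, with the older method, with only the libraries compared and with the replicate block, and 0 to 13 with a library left out. In rehydrated against control medulla the count of 2 became 1 without a filter and with members chosen on TMM-normalized CPM or with a minimum of 1 CPM, 0 with DESeq2's size factors, the older method, the integrity number, only the libraries compared and the replicate block, and 0 to 4 with a library left out. The cause of these moves was not tested, beyond the fewer libraries that some fits hold. With the camel as a block, 149 and 147 members were higher in cortex than in medulla in dehydrated and rehydrated camels, the latter with a pairing that is in doubt. The replicate numbers shared by groups of a tissue are names, with a mean correlation of same-numbered deviations from -0.0547 to 0.207 over the 6 comparisons. All 578 fits of single called members under another setting kept their direction, and 349 kept their call. With each library total multiplied by its TMM factor, the members' counts came to 7.27% of that scaled total in control, 4.94% in dehydrated and 6.33% in rehydrated cortex. These values are not shares of the counts. On this scale dehydrated and control cortex overlapped, with dehydrated replicate 4 (6.40%) above control replicates 1 and 2 (6.27% and 6.09%). Without *ECHS1* the members took 5.47% of the counts in control cortex. The rule gave 145 of the same genes on TMM-normalized CPM and 143 with a minimum of 1 CPM.

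With 5 camels a group and a recovery of 51.5% for a change of 1 on the log2 scale in the simulation, many smaller differences of single members could not be detected. The simulation changed genes drawn at random from those above a minimum mean count, so its recovery does not cover genes with lower counts. Members also varied more than other genes. Their median SD of log2(CPM + 1) was 0.39 against 0.28 in control cortex and 0.86 against 0.22 in control medulla. The recovery for the members themselves, or in the medulla, was not simulated and may be lower. Comparisons with control share the libraries that chose the members.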

Other observations

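A member without a symbol, ENSCDRG00005000251, was near 0 in both tissues of 2 control camels. It was at 0.304 and 3.82 CPM in control cortex replicates 1 and 2 and at 0.109 and 0 CPM in the medulla of the same camels, whereas the other 3 control camels had 903, 431 and 347 CPM in the cortex and 129, 128 and 97.2 CPM in the medulla. All dehydrated and rehydrated cortex libraries were between 244 and 807 CPM. It lies on chromosome 1 (75847537 to 75860748). It was noticed in the data, and no test was made.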
